A study of Arabidopsis thaliana with 8 samples.

Results

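The genes carried by the chloroplast genome of Arabidopsis thaliana were followed across a drought and overexpression experiment. They were chosen by locus name, as every gene whose identifier starts with ATCG, without use of any measured value. Of 24132 genes listed in at least 1 library, 88 carry such a name, 81 of them in all 8 libraries. After the filter on low counts 74 of the 88 were tested, and the other 14, which had few counts, are given as counts at the end. The listed genes code for proteins, and chloroplast ribosomal and transfer RNAs were not analysed here.

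The RNA came from Columbia-0 plants 3 weeks old, labelled as whole plants, and was sequenced as 2 libraries in each of 4 groups. Droughted OE plants overexpressed VaWRKY14, a grapevine WRKY transcription factor, and had gone 5 days without water. Watered OE plants carried the same transgene under normal watering. Droughted WT and watered WT plants were wild type under the same pair of conditions. The overexpressing material is called a mixture of transgenic plants in the labels, the promoter of the transgene is not given in the sources used here, and no label says that the libraries of a group came from separate plants or pots, so the p-values below measure the spread between these libraries only. One OE library from droughted plants, the first, carries VaWRKY15 in its genotype field but VaWRKY14 in its title and source, and it was kept among the OE libraries. All 8 library names carry the same run and lane prefix.

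The chloroplast genome is a small circular remnant of a cyanobacterial genome, present in many copies per plastid. It encodes core subunits of photosystem I, photosystem II, the cytochrome b6f complex, ATP synthase and the NDH complex, the large subunit of Rubisco, part of the plastid ribosome, and the core of the plastid-encoded RNA polymerase. Most of its genes are transcribed in long units that are cut and trimmed into smaller RNAs, and the remaining subunits of the same complexes come from the nucleus. Mature chloroplast messages end in stem-loops and mostly lack the poly(A) tail of nuclear messages, and a short added A tail marks them for decay.

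Depth was 9591274 to 11378571 expected counts per library, and the spread between libraries of a group over all genes was 10.2% (biological coefficient of variation). Leaf genes (LHCB1.3, LHCB2.1, LHCA1, RBCS1A and CA1) summed to 23250 to 26576 CPM (counts relative to library size scaled by TMM) in droughted OE, 56795 to 70363 in watered OE, 18183 to 25398 in droughted WT and 45692 to 57606 in watered WT plants. The 10 root genes summed to 17.8 to 24.3 CPM in droughted OE and 42.4 to 44.4 in watered OE plants. In WT plants they summed to 18.6 to 30.3 CPM under drought and 35.4 to 52.4 with normal watering. Of these genes 2 to 5 were above 0 in a library, in material labelled as whole plants. COBL9, EXPA7 and EXPA18 were at 0 in all 8 libraries, while ESB1 had 3.5 to 7.3 CPM and PYK10 10.3 to 48.9 CPM. The 8 flower genes summed to 60.0 to 81.5 CPM in droughted OE, 6.02 to 22.6 in watered OE, 35.9 to 40.8 in droughted WT and 21.0 to 27.1 in watered WT plants. The 7 genes of senescing leaves summed to 536 to 775 CPM in droughted OE, 541 to 599 in watered OE, 515 to 565 in droughted WT and 518 to 823 in watered WT plants. Under drought 5 of 5 leaf genes fell in OE and 4 of 5 in WT plants. Of the 8 flower genes 6 rose in OE and none in WT plants, where all 8 had positive fold changes (median log2 0.69). Of 2 root genes tested, 1 rose in WT plants and none passed in OE plants. Of 7 genes of senescing leaves 2, SAG12 and SGR1, rose in OE and none in WT plants. Over all genes, 9.92% fell and 6.77% rose in OE plants, and 7.37% fell and 5.63% rose in WT plants. SAG12, a protease gene of late senescence, had 185 and 58.6 CPM in droughted OE, against 0 in both watered OE libraries (edgeR adjusted p = 0.0367), and 6.19 and 4.45 CPM in droughted WT, against 0.0975 and 0 CPM in watered WT plants (edgeR adjusted p = 0.276). SGR1, of chlorophyll breakdown, averaged 27.7 CPM in droughted OE, against 16.2 CPM in watered OE plants (edgeR adjusted p = 0.0137). The part of these lists in the results below was not tested.

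The sequences that follow lie just downstream of 5 coding sequences in TAIR10.1 and are shown because the levels described next turn on these genes. psbM, atpE, atpB and rpl32 were the 4 highest per length in every library, and psbA and rbcL, known from leaf RNA as abundant chloroplast messages, were low. Each line gives 30 bases, 5′ to 3′ on the gene's strand, and the capitals mark the longest run of A in a window of 300 bases, the last 100 of the coding sequence and the 200 after it.
psbM, ChrC:28665-28694, minus strand: tttactatcAAAAAAAAAAAAAgatttcaa
atpE, ChrC:52225-52254, minus strand: agctgacgtgtAAAAAAAAAgaatgtataa
atpB, ChrC:52591-52620, minus strand: gggattcagaagtAAAAgaaatcattttat
rpl32, ChrC:113656-113685, plus strand: taaatacatctAAAAAAAAtaggaagcaaa
rbcL, ChrC:56530-56559, plus strand: aatttagatagAAAAAAAActcttcaataa
The run was 13 bases after psbM, 9 after atpE, 8 after rpl32 and rbcL and 4 after atpB, whose window lies largely within atpE. A run of at least 8 A (AAAAAAAA) stood in this window on the gene's strand for 25 of 77 genes, or 32.5%, and on the other strand for 22.1%. It was there for 5 of the 10 genes with the highest level per length. Counting both strands, 45.5% of the gene windows and 30.2% of 514 consecutive windows of the same length along the whole chloroplast genome held such a run. Across the 77 genes, Spearman's rho between the level and the longest run on the gene's strand was 0.155, a description over genes that share neighbours and transcription units. How RNA was selected for the libraries is not given beyond a standard protocol.

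Within the chloroplast set, a few genes held most of the counts. atpB, the beta subunit of ATP synthase, took 35.9% of all chloroplast counts, atpE, its epsilon subunit, 13.7%, and ycf1 (ATCG01130), a subunit of the import machinery of the inner envelope, 8.42%. These were the 3 highest genes by count in each of the 8 libraries. Mean expected counts reached at least 1000 for 15 genes and stayed under 10 for 17.

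On the scale of the deposited FPKM, which divides by length, psbM, a small photosystem II subunit, averaged 4282 ± 820 FPKM (SD over 8 libraries). atpE averaged 3832 ± 520 FPKM, atpB 2483 ± 643 FPKM and rpl32, a large-subunit ribosomal protein gene, 1940 ± 248 FPKM. psbA, which encodes the D1 reaction centre protein of photosystem II, lay between 13.6 and 24.7 FPKM in the 8 libraries, and rbcL, the Rubisco large subunit, between 2.64 and 7.50 FPKM. The ratio of atpB to rbcL, genes that lie back to back on opposite strands, was 322 to 678 in FPKM. Genes of a shared transcription unit also differed in level: psbD, the D2 protein, exceeded psbC, the CP43 antenna protein, 7.41 to 16.0 times, and ndhK exceeded ndhC 4.02 to 5.41 times. psbD and psbC overlap by 53 bases on the same strand, so reads there may be assigned to either.

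By function, ribosomal protein genes had the highest median FPKM, at 328 for the 11 large-subunit and 148 for the 15 small-subunit genes. The selection of RNA is not given, so this is an order of deposited values only. Photosystem II genes had a median of 17.4 FPKM over 15 genes and ATP synthase genes 13.4 over 6. The cytochrome b6f genes had a median of 6.00 FPKM, RNA polymerase genes 3.96, NDH genes 3.80 and photosystem I genes 3.22. Each photosynthetic group held a gene far above its own median, namely psbM, atpE, ndhK at 666 FPKM and psaJ at 367 FPKM, with the cytochrome b6f group as the exception, where petN was highest at 10.04 FPKM.

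**Figure D1:**
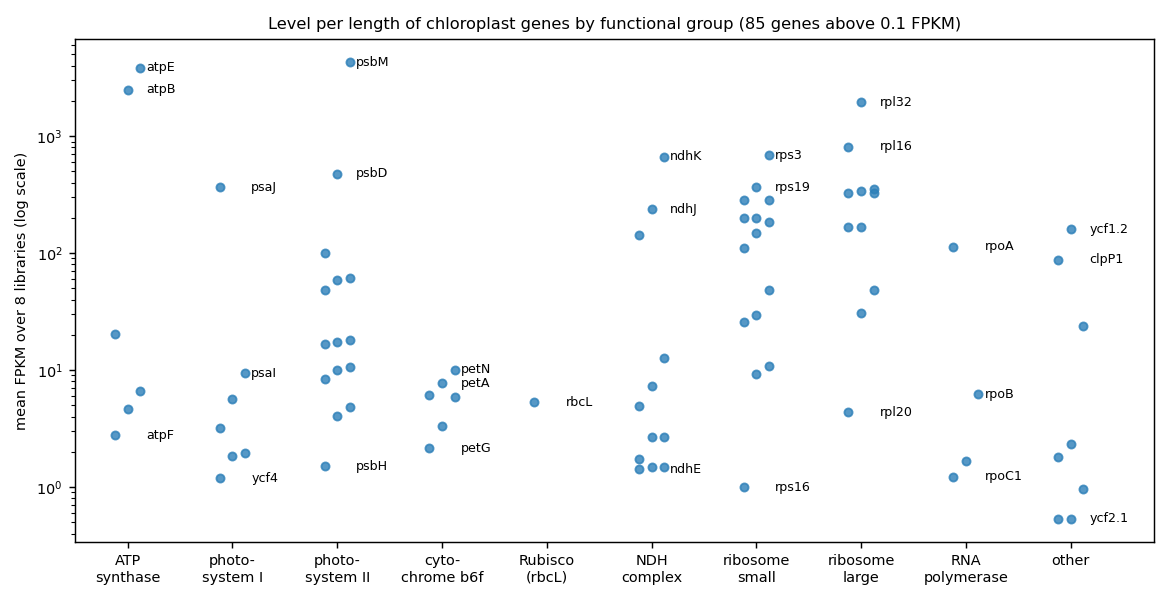
Mean FPKM over the 8 libraries (y axis, log scale) for each chloroplast gene above 0.1 FPKM, by functional group (x axis), with 1 point per gene and the highest 2 and lowest genes of a group named. Ribosomal protein genes lie mostly above 100 FPKM, while rbcL stands at 5.33 and most photosystem I, cytochrome b6f and NDH genes lie under 10.

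The first droughted WT library stood apart from the second among chloroplast genes. Of the 74 tested genes, 63 were higher in the first, with a median log2 ratio of 0.46 (SD 0.52 over genes). The same median between the libraries of the other groups was -0.02 in droughted OE, -0.08 in watered OE and -0.18 in watered WT plants. The excess differed between transcription units and also within them. The median log2 ratio was 1.19 (1.04 to 1.36 over its genes) for psaA, psaB and rps14 and 0.83 (0.21 to 1.60) for the unit from rps2 to atpA. It was -0.10 (-0.79 to 0.52) for the ribosomal unit from rpl23 to rpoA. For rpoB, rpoC1 and rpoC2 it was 0.07, with -1.07 for rpoC1 and 1.36 for rpoC2.

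Chloroplast genes supplied about 1 in 100 counts in every library, and less under drought. Their share of the library was 0.909% and 0.916% in droughted OE, against 1.23% and 1.09% in watered OE plants. It was 0.998% and 0.831% in droughted WT, against 1.14% and 1.22% in watered WT plants. The groups did not overlap between conditions in either genotype, and OE and WT overlapped within each condition. The mean share under drought was 0.786 times that with normal watering in OE (log2 ratio -0.35 ± 0.12, SD from n = 2 libraries a group) and 0.775 times in WT plants (log2 ratio -0.37 ± 0.20). In WT plants the log2 ratio was -0.12 without atpB and -0.07 on the share of summed FPKM. In bulk RNA, fewer chloroplast-rich cells and less chloroplast RNA per cell cannot be told apart. How RNA was selected is not given, and the cause of the lower share was not tested.

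The summed counts of the groups did not share this pattern equally, and some sums rest on few genes. Of all chloroplast counts, atpB and atpE held 49.6%, and no other ATP synthase gene held more than 0.141%. psbD and psbM held 4.79% and 2.87%, and no other photosystem or cytochrome b6f gene more than 0.657%. The sums of these groups therefore follow mainly these genes. ATP synthase genes made up 0.450% and 0.447% of the library in droughted OE, against 0.656% and 0.496% in watered OE plants, and 0.426% and 0.385% in droughted WT, against 0.610% and 0.675% in watered WT plants. Ribosomal protein genes held 0.210% and 0.236% in droughted OE, against 0.280% and 0.290% in watered OE plants, and 0.235% and 0.206% in droughted WT, against 0.263% and 0.267% in watered WT plants. In both of these groups all droughted libraries lay below all watered ones. Photosystem and cytochrome b6f genes held 0.0977% and 0.0812% in droughted OE, against 0.114% and 0.116% in watered OE plants, but 0.150% and 0.0913% in droughted WT, against 0.0763% and 0.0896% in watered WT plants, where the droughted libraries were the higher ones by a small margin in the second. Scaled by TMM, this sum was 876 and 726 CPM in droughted OE, against 1259 and 1371 CPM in watered OE plants, and 1414 and 803 CPM in droughted WT, against 809 and 980.3 CPM in watered WT plants. On that scale the WT groups overlapped and the second droughted WT library was the lowest of the 4 WT libraries.

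**Figure D2:**
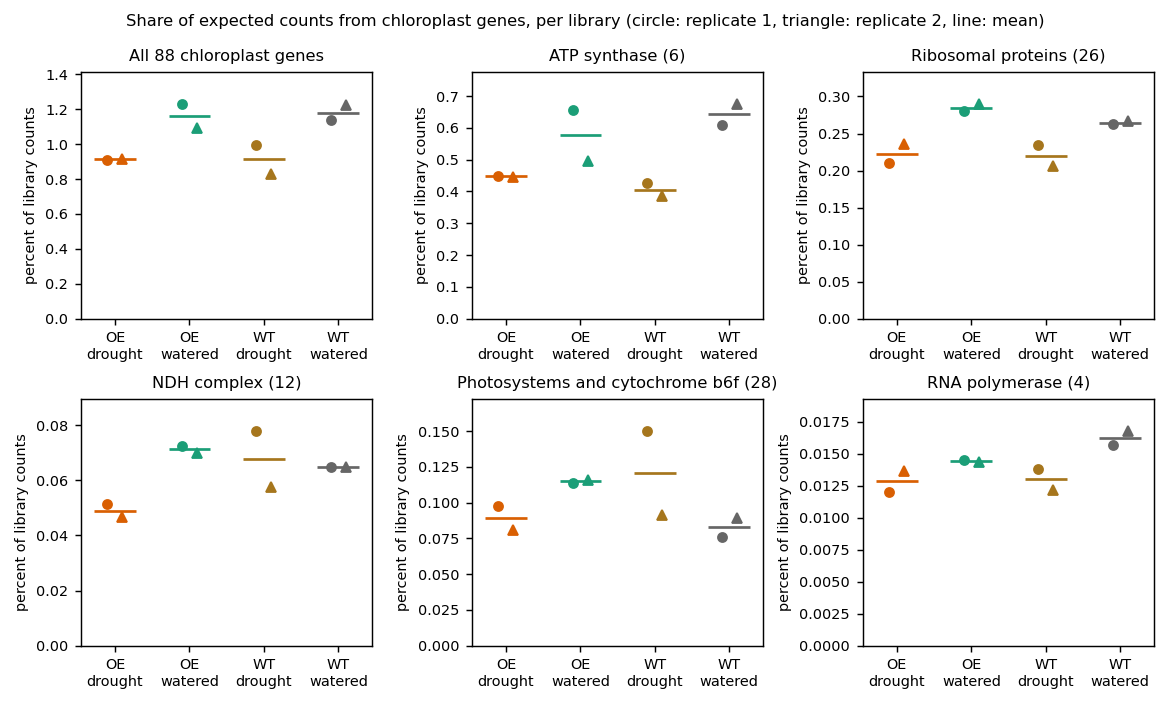
Percent of all expected counts of a library (y axis) from all 88 chloroplast genes and from 5 functional groups, in droughted OE, watered OE, droughted WT and watered WT plants (x axis), with 1 point per library and a line at the group mean. The droughted libraries lie below the watered ones for all genes, ATP synthase and ribosomal proteins, while the photosystem and cytochrome b6f genes of the first droughted WT library stand highest at 0.150%. The ATP synthase sum is mostly atpB and atpE, and the photosystem and cytochrome b6f sum mostly psbD and psbM.

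Under drought, chloroplast messages were lower than with normal watering in both genotypes. In OE plants 32 of the 74 tested genes fell and none rose (edgeR's quasi-likelihood test, Benjamini-Hochberg adjusted over all 19259 genes, adjusted p under 0.05), against 9.92% of all genes that fell and 6.77% that rose. In WT plants 19 fell and none rose, against 7.37% of all genes that fell and 5.63% that rose. At an unadjusted p under 0.05, and by DESeq2, the number that rose was also 0 in both genotypes. The median log2 fold change of the 74 genes was -0.67 in OE and -0.46 in WT plants, beside 0.02 over all genes in each, and 73 of the 74 were negative in OE and 61 in WT plants. Of the genes that fell, 14 were shared, which is 43.8% of the OE and 73.7% of the WT calls.

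Genes in the inverted repeat of the chloroplast genome are listed at both copies with equal counts, so the 74 tested genes are 68 distinct ones, and with the copies summed 26 of 68 fell in OE and 18 of 68 in WT plants. Without the first droughted WT library 31 genes fell in WT plants, 17 of them among the 19, and without the second 13 fell and psbD rose. In OE plants 10 fell without the first droughted library, 19 without the second, and 17 without the second watered library. With library totals alone in place of TMM, the median of all genes moved to 0.37 in OE and 0.27 in WT plants and that of the chloroplast genes to -0.32 and -0.22, and 19 fell in OE and 14 in WT plants. The fall of atpA, ndhJ, petA, rpl16, rpl23 and rps7 in OE plants passed the test whichever of the 8 libraries was left out, as did that of atpA, atpB, rpoB, ndhJ, petA, rps3, rps15, rpl14, rpl16 and rpl22 in WT plants.

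**Figure D3:**
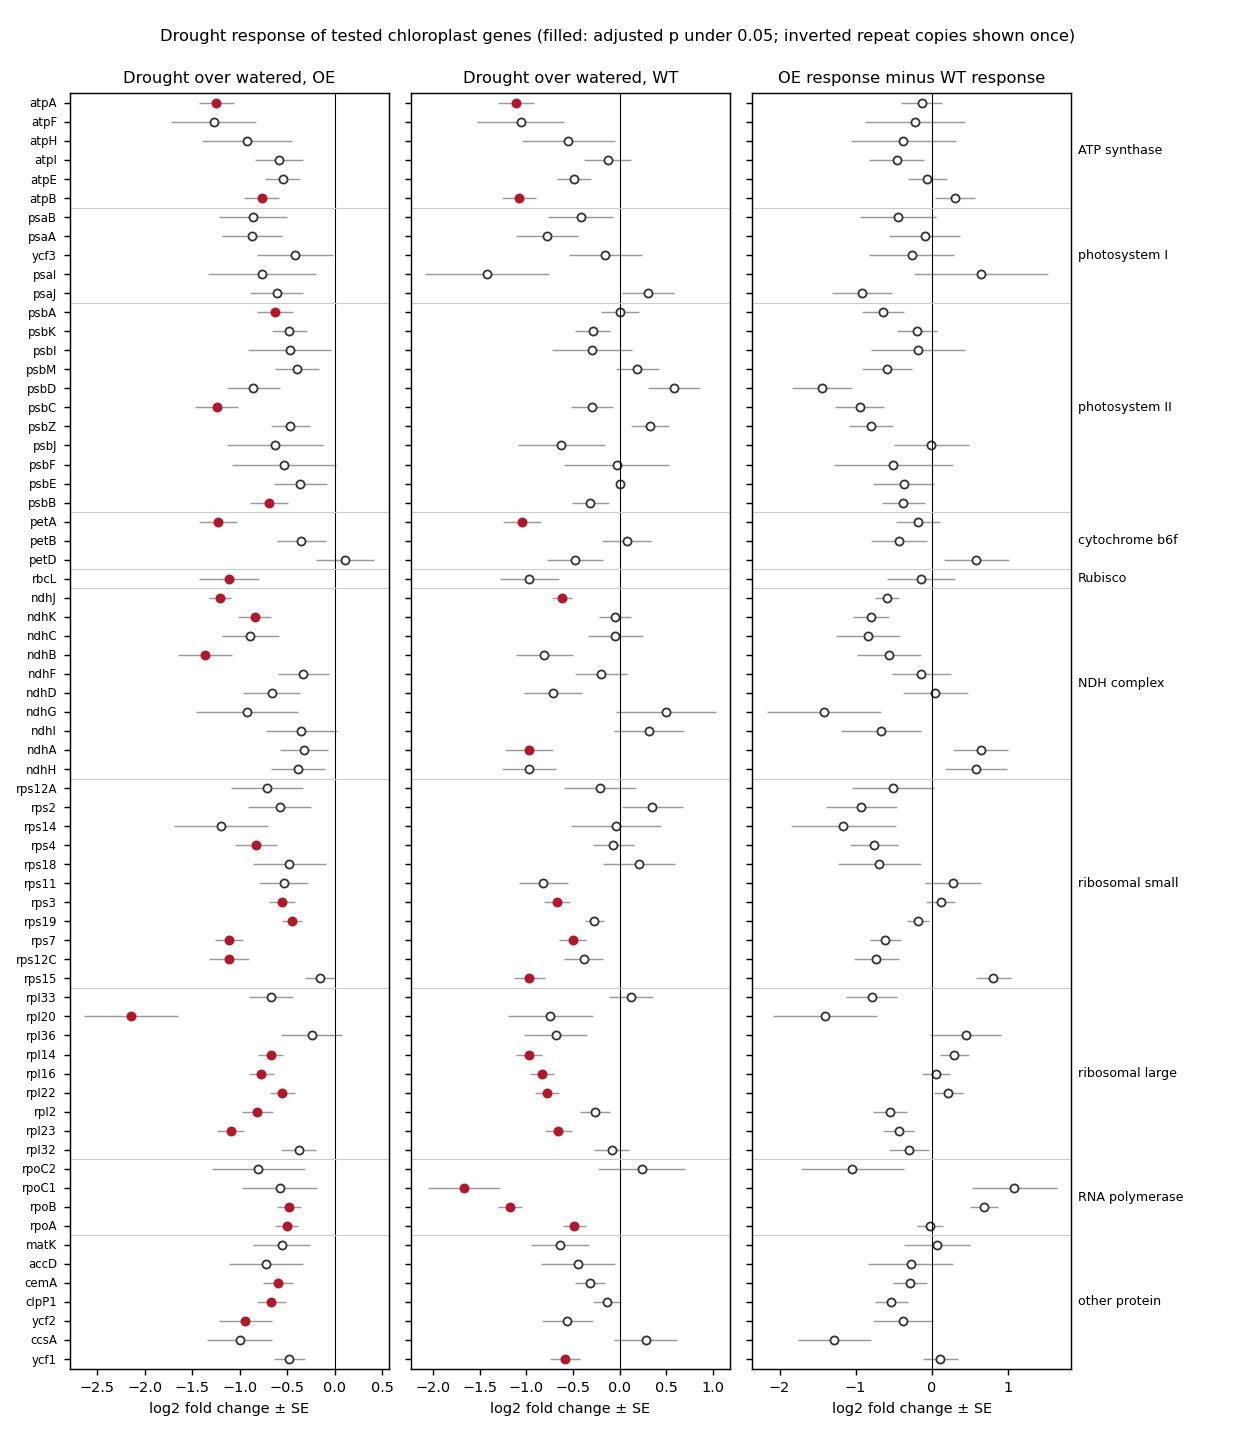
Log2 fold change ± SE (x axis) of drought over normal watering in OE plants, the same in WT plants, and the OE response minus the WT response, for tested chloroplast genes grouped by function (y axis), with filled points for adjusted p under 0.05 and inverted repeat copies shown once. Nearly all points of OE plants lie below 0, photosystem II genes of WT plants lie around 0, and no difference between responses is filled. The SE of psbE in WT plants, whose fold change was 0.00, could not be computed and has no bar.

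Of the 6 ATP synthase genes tested, 2 fell in each genotype and none rose, against 9.92% of all genes that fell in OE and 7.37% in WT plants. Without either droughted WT library 5 fell in OE plants, and without the first 4 fell in WT plants, while 1 fell in OE plants without the first watered or either droughted OE library. atpB had 2790 and 2877 CPM in droughted OE, against 5383 and 4278 CPM in watered OE plants, and 2544 and 2361 CPM in droughted WT, against 4803 and 5549 CPM in watered WT plants. All 4 droughted libraries lay well below all 4 watered ones. The log2 fold change was -0.77 ± 0.18 (SE, n = 2 libraries a group) in OE plants (edgeR adjusted p = 0.0097) and -1.08 ± 0.18 in WT plants (edgeR adjusted p = 0.00137). In OE plants the call did not hold without the first watered library or either droughted one, and over all fits that left out 1 library the change was between -0.93 and -0.60.
atpA, the alpha subunit, is read from a separate unit and had 7.23 and 6.53 CPM in droughted OE, against 18.6 and 14.1 CPM in watered OE plants, and 6.39 and 5.50 CPM in droughted WT, against 11.7 and 13.95 CPM in watered WT plants. It fell by 1.25 and 1.11 on the log2 scale in OE and WT plants (edgeR adjusted p = 0.000399 and 0.00146). atpE, which follows atpB on the same transcript and overlaps it by 4 bases, had a log2 fold change of -0.55 ± 0.18 in OE (edgeR adjusted p = 0.0527) and -0.49 ± 0.18 in WT plants (edgeR adjusted p = 0.0952) and did not pass. atpH, the ring-forming subunit, was at 0.648 to 1.88 CPM in all libraries and did not pass either.

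**Figure D4:**
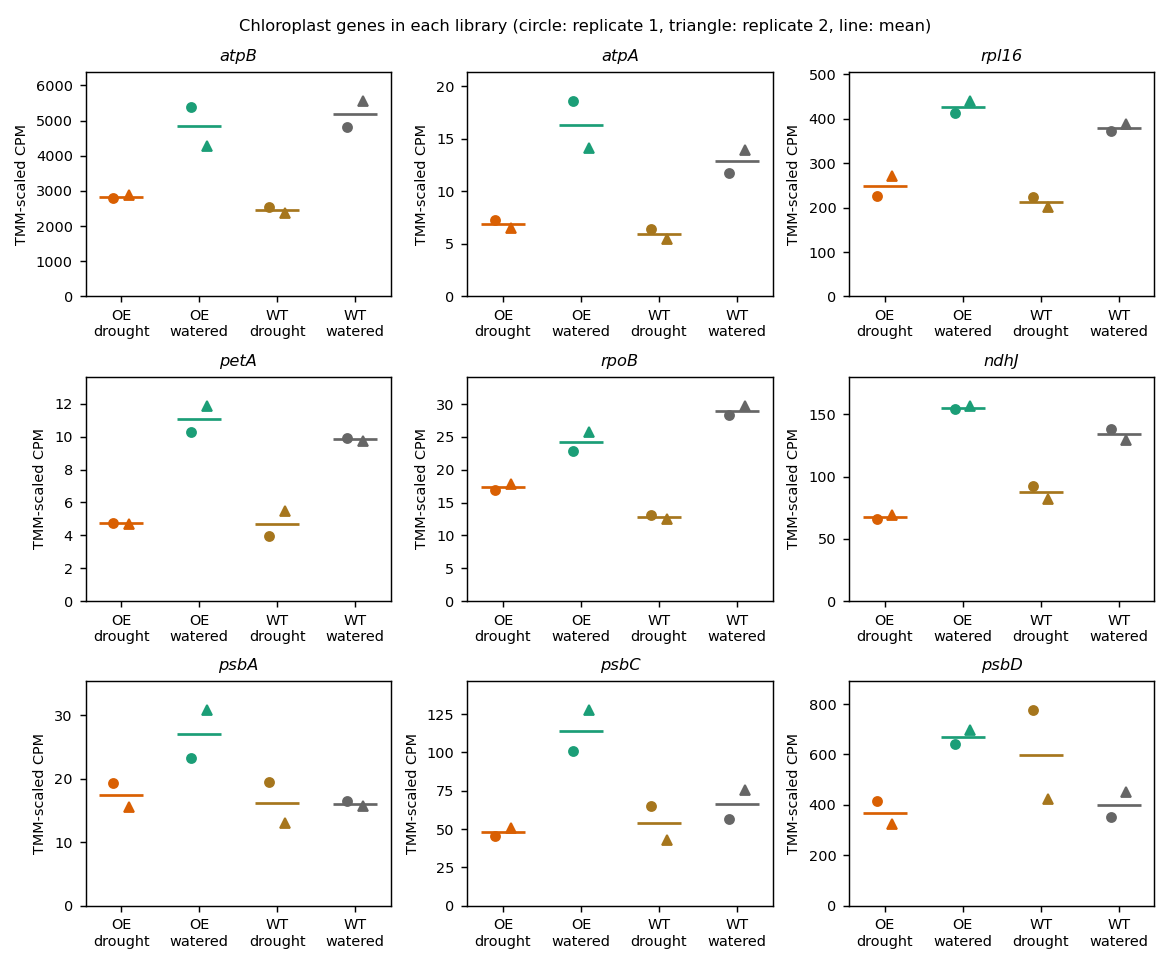
TMM-scaled CPM (y axis, from 0) of 9 chloroplast genes in each library of droughted OE, watered OE, droughted WT and watered WT plants (x axis), with a line at the group mean. atpB, atpA, rpl16, petA, rpoB and ndhJ are lower in all droughted libraries than in all watered ones of either genotype, whereas psbD spans 422 to 774 CPM within droughted WT plants.

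Of 11 photosystem II genes tested, 3 fell in OE plants and none in WT plants, and of 5 photosystem I genes none passed in either. Over all genes, 9.92% fell in OE and 7.37% in WT plants. In OE plants 3 photosystem I genes fell without either droughted WT library, and 5 or 4 photosystem II genes without the first or the second, while no photosystem II gene fell without either droughted OE library. In WT plants 2 genes of each photosystem fell without the first droughted WT library. psbA had 19.3 and 15.6 CPM in droughted OE, against 23.3 and 30.7 CPM in watered OE plants, and 19.5 and 13.03 CPM in droughted WT, against 16.5 and 15.7 CPM in watered WT plants. The watered OE libraries were the highest and the other 3 groups overlapped. psbA fell in OE plants (log2 fold change -0.63 ± 0.19, edgeR adjusted p = 0.0395) and had 0.00 ± 0.20 in WT plants (edgeR adjusted p = 0.992). The OE call was lost without the second watered library or either droughted library, with changes of -0.82 to -0.42 over the fits that leave out 1 library.
psbC had 45.6 and 50.7 CPM in droughted OE, against 101 and 127 CPM in watered OE plants, and 65.3 and 42.6 CPM in droughted WT, against 56.7 and 75.4 CPM in watered WT plants. It fell in OE plants by 1.24 on the log2 scale (SE 0.23, edgeR adjusted p = 0.00878), a call lost without either droughted OE library, and had -0.30 ± 0.23 in WT plants (edgeR adjusted p = 0.462). psbB, the CP47 antenna protein, fell in OE plants (log2 fold change -0.69 ± 0.20, edgeR adjusted p = 0.0392), a call that needed all 4 OE libraries, and had -0.32 ± 0.20 in WT plants (edgeR adjusted p = 0.353).
psbD had 414 and 324 CPM in droughted OE, against 642 and 699 CPM in watered OE plants, and 774 and 422 CPM in droughted WT, against 352 and 449 CPM in watered WT plants. The droughted OE libraries lay below the watered ones, while the droughted WT libraries spanned the largest range of any group. Neither change passed, with -0.86 ± 0.28 in OE (edgeR adjusted p = 0.0757) and 0.58 ± 0.28 in WT plants (edgeR adjusted p = 0.233). In OE plants psbD fell, with a log2 fold change of -0.86, in the fits without the first or the second droughted WT library (edgeR adjusted p = 0.00314 and 0.00311). Without the second droughted WT library psbD rose in WT plants by 0.95 (edgeR adjusted p = 0.0118).
psaA, a core protein of photosystem I, had a log2 fold change of -0.87 ± 0.32 in OE (edgeR adjusted p = 0.0763) and -0.78 ± 0.33 in WT plants (edgeR adjusted p = 0.144). Without the first droughted WT library psaA and psaB, its partner, fell in WT plants by 1.38 and 1.12 (edgeR adjusted p = 0.0374 and 0.0326).

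Of the 3 cytochrome b6f genes tested, 1 fell in both genotypes, against 9.92% of all genes that fell in OE and 7.37% in WT plants. This was petA, which encodes cytochrome f. It had 4.77 and 4.68 CPM in droughted OE, against 10.3 and 11.9 CPM in watered OE plants, and 3.93 and 5.50 CPM in droughted WT, against 9.95 and 9.72 CPM in watered WT plants. Droughted and watered libraries were far apart in each genotype. The log2 fold change was -1.23 ± 0.20 in OE (edgeR adjusted p = 0.000806) and -1.05 ± 0.20 in WT plants (edgeR adjusted p = 0.00321). petB and petD, cytochrome b6 and subunit IV from the unit that starts with psbB, had -0.35 and 0.11 in OE plants and 0.07 and -0.48 in WT plants and did not pass.

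rbcL had 5.03 and 5.19 CPM in droughted OE, against 9.26 and 12.8 CPM in watered OE plants, and 7.44 and 3.35 CPM in droughted WT, against 9.12 and 11.5 CPM in watered WT plants. Droughted libraries lay below watered ones in both genotypes, and the droughted WT libraries differed most from each other. It fell in OE plants (log2 fold change -1.11 ± 0.31, edgeR adjusted p = 0.036), a call lost without the second watered library or either droughted one. In WT plants the change was -0.97 ± 0.32 (edgeR adjusted p = 0.0748), and without the first droughted library it fell by 1.66 (edgeR adjusted p = 0.0038).

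Of 11 NDH genes tested, 4 fell in OE plants (ndhJ, ndhK and both copies of ndhB) and 2 in WT plants (ndhJ and ndhA). All code for subunits of the complex that feeds electrons back from ferredoxin to plastoquinone. Over all genes, 9.92% fell in OE and 7.37% in WT plants. ndhJ had 65.7 and 68.97 CPM in droughted OE, against 154 and 157 CPM in watered OE plants, and 92.7 and 81.8 CPM in droughted WT, against 138 and 129 CPM in watered WT plants. The 4 groups did not overlap, in the order droughted OE, droughted WT, watered WT and watered OE. The log2 fold change was -1.21 ± 0.11 in OE (edgeR adjusted p = 2.47e-05), the smallest adjusted p of any chloroplast gene in OE plants, and -0.62 ± 0.11 in WT plants (edgeR adjusted p = 0.00191).
Along the same unit ndhK had 335 and 281 CPM in droughted OE, against 548 and 559 CPM in watered OE plants, and 543 and 361 CPM in droughted WT, against 463 and 472 CPM in watered WT plants. It fell in OE plants by 0.84 (edgeR adjusted p = 0.00394, lost without the second droughted OE library) and had -0.05 ± 0.17 in WT plants (edgeR adjusted p = 0.89), where the libraries overlapped. ndhB had 1.97 and 2.30 CPM per copy in droughted OE, against 5.08 and 5.83 CPM in watered OE plants, and 2.11 and 1.74 CPM in droughted WT, against 2.78 and 4.14 CPM in watered WT plants. It fell in OE plants by 1.37 (edgeR adjusted p = 0.00446, lost when the first OE library from droughted plants was left out) and had -0.81 ± 0.31 in WT plants (edgeR adjusted p = 0.102), or -0.85 with the copies summed (edgeR adjusted p = 0.0285).
ndhA fell in WT plants by 0.97 (edgeR adjusted p = 0.0214), a call lost without the second watered or the first droughted WT library, and had -0.33 ± 0.25 in OE plants (edgeR adjusted p = 0.408). ndhF, which overlaps ycf1 by 39 bases on the other strand, had -0.33 ± 0.27 in OE and -0.20 ± 0.28 in WT plants and did not pass.

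Of 14 small-subunit genes tested, 7 fell in OE and 5 in WT plants, counting both inverted repeat copies. Of 11 large-subunit genes, counted in the same way, 8 fell in OE and 5 in WT plants. Over all genes, 9.92% fell in OE and 7.37% in WT plants. Without the first droughted WT library 8 of each fell in WT plants, and without the second 3 of each. In OE plants 2 small-subunit and 3 large-subunit genes fell without the first droughted OE library, and 2 small-subunit genes without the second watered one. rpl16 had 226 and 272 CPM in droughted OE, against 413 and 439.5 CPM in watered OE plants, and 225 and 202 CPM in droughted WT, against 373 and 387 CPM in watered WT plants. All droughted libraries lay well below the watered ones in both genotypes. The log2 fold change was -0.78 ± 0.13 in OE (edgeR adjusted p = 0.00103) and -0.83 ± 0.13 in WT plants (edgeR adjusted p = 0.000768).
Most neighbours of rpl16 in the long ribosomal unit named here also fell in both genotypes. rpl14 fell by 0.68 in OE and 0.97 in WT plants (edgeR adjusted p = 0.00335 and 0.000346), rpl22 by 0.56 and 0.78 (edgeR adjusted p = 0.00946 and 0.00135), rps3 by 0.55 and 0.67 (edgeR adjusted p = 0.0121 and 0.00433) and rpl23 by 1.09 and 0.66 (edgeR adjusted p = 0.000199 and 0.00674). rps3 and rpl22 share 16 bases on the same strand. rpl2 and rps19 fell in OE plants by 0.81 and 0.45 (edgeR adjusted p = 0.00337 and 0.00891) and had -0.26 and -0.27 in WT plants (edgeR adjusted p = 0.319 and 0.106). Without the second droughted WT library the call of rpl23 in WT plants was lost. Without the first droughted OE library those of rpl14, rpl22, rps3, rpl2 and rps19 in OE plants were lost, without the second watered one those of rpl22, rps3 and rps19, and without the second droughted one those of rps3 and rps19.
Outside that unit, rps7 had 61.6 and 58.7 CPM per copy in droughted OE, against 129.5 and 130.4 CPM in watered OE plants, and 84.4 and 60.5 CPM in droughted WT, against 92.5 and 112 CPM in watered WT plants. It fell by 1.11 in OE and by 0.50 in WT plants (edgeR adjusted p = 0.000233 and 0.0341), and the WT call was lost without the second watered or the second droughted WT library or either droughted OE library. The exons of rps12 in the inverted repeat fell in OE plants by 1.11 (edgeR adjusted p = 0.00868) and had -0.38 ± 0.21 in WT plants (edgeR adjusted p = 0.287).
rps4 fell in OE plants by 0.83 (edgeR adjusted p = 0.0203) and had -0.07 ± 0.22 in WT plants (edgeR adjusted p = 0.879). rpl20 had the largest fold change of any chloroplast gene that passed, at few counts, with 0.493 and 0.565 CPM in droughted OE, against 2.67 and 2.08 CPM in watered OE plants (log2 fold change -2.15 ± 0.49, edgeR adjusted p = 0.00802). The calls of rps12 and rps4 in OE plants needed all 4 OE libraries, and that of rpl20 needed both droughted ones and the first watered one. rps15 had 11.4 and 11.7 CPM in droughted OE, against 12.04 and 13.8 CPM in watered OE plants, and 7.17 and 7.69 CPM in droughted WT, against 13.5 and 15.7 CPM in watered WT plants. Its change was -0.16 ± 0.16 in OE plants (edgeR adjusted p = 0.536), and in WT plants it fell by 0.97 (edgeR adjusted p = 0.00123).

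Of the 4 genes for the plastid-encoded RNA polymerase, 2 fell in OE plants (rpoA and rpoB) and 3 in WT plants (rpoA, rpoB and rpoC1). Over all genes, 9.92% fell in OE and 7.37% in WT plants. rpoB, the beta subunit, had 16.9 and 17.8 CPM in droughted OE, against 22.8 and 25.7 CPM in watered OE plants, and 13.2 and 12.5 CPM in droughted WT, against 28.3 and 29.7 CPM in watered WT plants. The 4 groups did not overlap, with both droughted groups lowest and droughted WT below droughted OE. The log2 fold change was -0.48 ± 0.13 in OE (edgeR adjusted p = 0.0178, lost without the second watered or either droughted OE library) and -1.18 ± 0.13 in WT plants (edgeR adjusted p = 5.84e-05), the smallest adjusted p of any chloroplast gene in WT plants.
rpoA, the alpha subunit, which ends the ribosomal unit, fell by 0.51 in OE and 0.49 in WT plants (edgeR adjusted p = 0.0107 and 0.0156). The OE call was lost without the second watered or the first droughted OE library, and the WT call without the second watered or the second droughted WT library. rpoC1 had 0.884 and 1.86 CPM in droughted WT, against 3.32 and 5.68 CPM in watered WT plants, where it fell by 1.67 (SE 0.39, edgeR adjusted p = 0.00973, lost without the first droughted or the second watered WT library). It had -0.58 ± 0.39 in OE plants (edgeR adjusted p = 0.343). rpoC2 had 5.84 and 3.47 CPM in droughted OE, against 7.11 and 9.17 CPM in watered OE plants, and 12.3 and 4.78 CPM in droughted WT, against 6.15 and 8.08 CPM in watered WT plants, with no change past the threshold. The first droughted WT library was the highest of all 8 for rpoC2 and the lowest for rpoC1, which lies beside it in the same unit.

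Of 8 other protein genes tested, 4 fell in OE plants (cemA, clpP1 and both copies of ycf2) and 1 in WT plants (ycf1). Over all genes, 9.92% fell in OE and 7.37% in WT plants. clpP1, the proteolytic core of the Clp protease, had 35.1 and 42.2 CPM in droughted OE, against 60.03 and 62.8 CPM in watered OE plants, and 56.8 and 41.4 CPM in droughted WT, against 48.97 and 58.9 CPM in watered WT plants. It fell in OE plants by 0.67 (edgeR adjusted p = 0.0088, lost without the second watered or the first droughted OE library) and had -0.14 ± 0.15 in WT plants (edgeR adjusted p = 0.609). cemA, an envelope membrane protein, fell in OE plants by 0.60 (edgeR adjusted p = 0.0169), and ycf2, a component of the import motor, by 0.94 (edgeR adjusted p = 0.0319). The call of ycf2 needed all 4 OE libraries, and that of cemA both watered ones and the second droughted one.
ycf1 had 732 and 749.5 CPM in droughted OE, against 917 and 1144 CPM in watered OE plants, and 806 and 627 CPM in droughted WT, against 1059 and 1097 CPM in watered WT plants. It fell in WT plants by 0.59 (edgeR adjusted p = 0.0249, lost without either watered or the second droughted WT library) and had -0.48 ± 0.16 in OE plants (edgeR adjusted p = 0.0555), although in both genotypes the droughted libraries lay below the watered ones. accD, a subunit of the acetyl-CoA carboxylase of fatty acid synthesis, and matK, an intron maturase, had -0.72 and -0.56 in OE and -0.45 and -0.64 in WT plants and did not pass.

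Whether the drought responses differed between the genotypes was tested as an interaction. No chloroplast gene passed, against 0.161% of all genes (edgeR), and none was called by DESeq2. At an unadjusted p under 0.05, 18 of the 74 were lower and 2 higher in OE, beside 2407 of all 19259 genes in either direction. The median difference of the 74 genes was -0.38 on the log2 scale, against -0.01 over all genes, and 56 were negative. Without the first droughted WT library the median difference was -0.04 and still none passed. Without the second it was -0.63 and 4 passed as lower, namely psbD, ndhC and both copies of rps12 (named after their values were seen). The differences with the smallest unadjusted p were those of rpoB, at 0.69 ± 0.18 (edgeR adjusted p = 0.133), and ndhJ, at -0.59 ± 0.16 (edgeR adjusted p = 0.133), in opposite directions. psbD had the most negative difference, -1.44 ± 0.39 (edgeR adjusted p = 0.21). Genes called in OE plants and not in WT plants, such as psbA and psbC, were therefore not shown to respond differently.

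Between the genotypes under drought no chloroplast gene passed, against 0.296% of all genes (edgeR), and none was called by DESeq2. At an unadjusted p under 0.05, 7 of the 74 were lower and 4 higher in OE, beside 1771 of all 19259 genes in either direction. The median log2 fold change of OE over WT was -0.14, beside -0.01 over all genes. It was 0.15 without the first droughted WT library and -0.36 without the second, where ndhC and both copies of rps12 were lower in OE plants (edgeR adjusted p = 0.0071 and 0.0453). rps15 had the smallest unadjusted p, with 11.4 and 11.7 CPM in droughted OE, against 7.17 and 7.69 CPM in droughted WT plants (log2 fold change 0.64 ± 0.16, edgeR adjusted p = 0.171). rpoB had 0.43 ± 0.13 (edgeR adjusted p = 0.274) and atpB 0.21 ± 0.18 (edgeR adjusted p = 0.796).

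With normal watering no chloroplast gene passed either, against 0.389% of all genes (edgeR). At an unadjusted p under 0.05, 9 of the 74 were higher and none lower in OE, beside 1969 of all 19259 genes in either direction. The median log2 fold change of OE over WT was 0.20, beside 0.00 over all genes, and 59 of 74 were positive. psbA had 23.3 and 30.7 CPM in watered OE, against 16.5 and 15.7 CPM in watered WT plants (log2 fold change 0.75 ± 0.20, edgeR adjusted p = 0.152). psbC had 101 and 127 CPM in watered OE, against 56.7 and 75.4 CPM in watered WT plants, and psbD 642 and 699 CPM in watered OE, against 352 and 449 CPM in watered WT plants. For these 3 photosystem II genes, none of which passed in edgeR, both watered OE libraries were above both watered WT ones. How many of all genes were separated in this way was not counted. The log2 fold changes of psbC and psbD were 0.79 ± 0.22 and 0.74 ± 0.28 (edgeR adjusted p = 0.265 and 0.418), and DESeq2 called psbC alone (adjusted p = 0.0181). rbcL, atpB and rpoB had 0.09, -0.10 and -0.26 and did not pass.

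**Figure D5:**
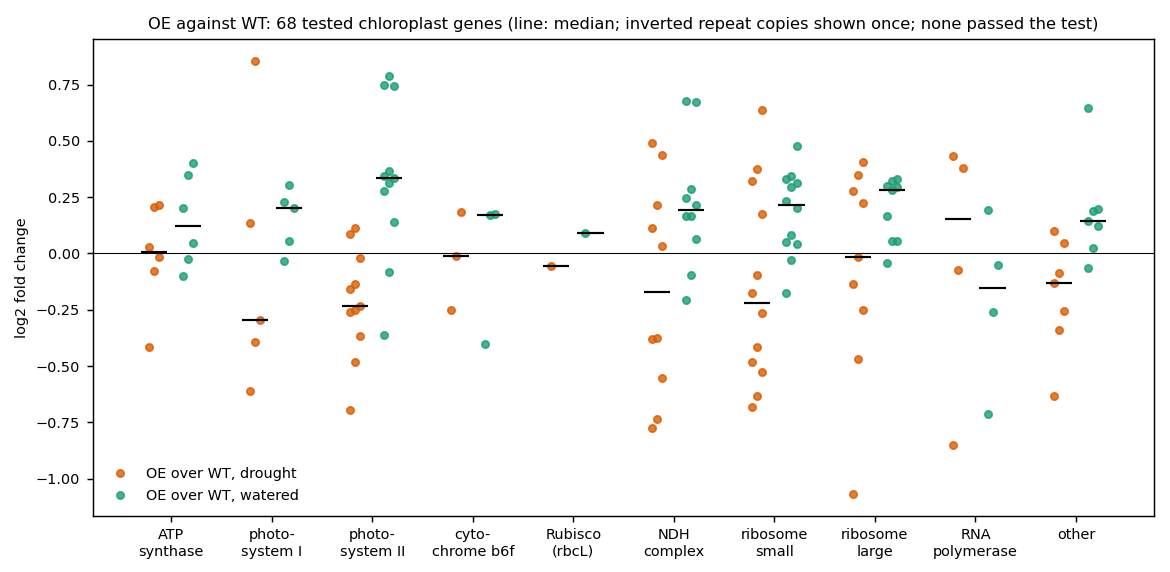
Log2 fold change of OE over WT (y axis) under drought (left of each pair) and with normal watering (right), for 68 tested chloroplast genes by functional group (x axis), with a line at the group median. With normal watering the medians lie above 0 in all groups but RNA polymerase, under drought they lie below 0 in all groups but ATP synthase and RNA polymerase, and no gene passed the test. With both inverted repeat copies counted, the drought median of NDH genes was 0.03. Without the first droughted WT library, and with both copies counted, the drought medians were 0.51 for photosystem I and 0.21 for photosystem II. They were then 0.63 for rbcL, 0.26 for NDH, 0.06 for the small and 0.04 for the large subunit. Those of cytochrome b6f and other genes stayed below 0, at -0.045 and -0.017.

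Nuclear genes for subunits of the same complexes were also lower under drought. Of 17 such genes, 17 fell in OE and 15 in WT plants, against 9.92% and 7.37% of all genes, and NDHM and NDHO were those that did not pass in WT plants. RBCS3B, a small subunit of Rubisco, had 1792 and 1584 CPM in droughted OE, against 6437 and 7434 CPM in watered OE plants, and 2247 and 1742 CPM in droughted WT, against 5072 and 6597 CPM in watered WT plants. Its log2 fold change was -2.04 ± 0.21 in OE and -1.55 ± 0.20 in WT plants (edgeR adjusted p = 3.61e-05 and 0.000234), although near-identical RBCS copies may share reads. RBCS2B fell by 1.77 and 1.39, PSAE1 by 1.54 and 1.11 and PSAF, both of photosystem I, by 1.47 and 1.18 in OE and WT plants. NDHL, of the NDH complex, fell by 1.14 and 0.67, and ATPD, the delta subunit of ATP synthase, by 1.17 and 1.05. The median of the 17 was -1.17 in OE and -0.96 in WT plants, beside the chloroplast medians of -0.67 and -0.46.

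Nuclear regulators of chloroplast transcription moved in both directions. Of 9 sigma factors and phage-type polymerases, 3 rose and 3 fell in OE plants, and 4 rose and 1 fell in WT plants. The 9 include RPOTm, the gene of a mitochondrial polymerase, which is among those that rose in both genotypes. Over all genes, 6.77% rose and 9.92% fell in OE plants, and 5.63% rose and 7.37% fell in WT plants. SIG5, a sigma factor that directs the plastid polymerase to a light-responsive psbD promoter, had 12.7 and 12.7 CPM in droughted OE, against 12.4 and 9.38 CPM in watered OE plants, and 17.7 and 16.4 CPM in droughted WT, against 9.66 and 9.62 CPM in watered WT plants. It rose in WT plants by 0.82 (edgeR adjusted p = 0.00372) and had 0.21 ± 0.16 in OE plants (edgeR adjusted p = 0.408). The difference of responses was -0.61 ± 0.23 (edgeR adjusted p = 0.29).
SIG2 fell by 0.69 in OE and 0.62 in WT plants (edgeR adjusted p = 0.000757 and 0.002), and SIG4 and SIG6 fell in OE plants by 0.52 and 0.43 (edgeR adjusted p = 0.00582 and 0.0276). The phage-type polymerase genes RPOTmp, RPOTm and RPOTp, of which the first acts in both organelles, the second in mitochondria and the last in plastids, rose in both genotypes, by 0.37 to 0.64 in OE and 0.39 to 0.68 in WT plants.
Of 12 proteins associated with the plastid polymerase, 2 rose in OE plants (PTAC10 and PTAC12) and 1 fell (PTAC7), and 2 fell in WT plants (PTAC7 and PTAC12). Set beside 6.77% of all genes that rose and 9.92% that fell in OE plants, and 7.37% that fell in WT plants, these are few calls. They are not read as a shift of the list. PTAC12 had 42.7 and 47.6 CPM in droughted OE, against 33.3 and 37.2 CPM in watered OE plants, and 36.3 and 34.96 CPM in droughted WT, against 43.4 and 48.96 CPM in watered WT plants. The difference of its responses, 0.73 ± 0.17, did not pass (edgeR adjusted p = 0.0773). Of 6 nucleases of chloroplast RNA, 3 fell in OE and 4 in WT plants, against 9.92% and 7.37% of all genes. CSP41A, CSP41B and RNR1 fell in both genotypes. PNP, the polynucleotide phosphorylase that adds and removes A tails, fell in WT plants (log2 fold change -0.40 ± 0.11, edgeR adjusted p = 0.0246) and had -0.27 ± 0.11 in OE plants (edgeR adjusted p = 0.107). No gene of these 4 nuclear lists passed between genotypes or in the difference of responses.

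Mitochondrial genes, the other organelle set, held 0.0220% and 0.0183% of the library in droughted OE, against 0.0152% and 0.0157% in watered OE plants, and 0.0247% and 0.0211% in droughted WT, against 0.0121% and 0.0116% in watered WT plants. Scaled by TMM, they summed to 197 and 163 CPM in droughted OE, against 168 and 186 CPM in watered OE plants, and 233 and 186 CPM in droughted WT, against 128 and 127 CPM in watered WT plants. The droughted libraries were above the watered ones on both scales in WT plants, but overlapped with them in OE plants under TMM. Of 45 mitochondrial genes tested (115 listed), 1 rose and 1 fell in OE plants, where 6.77% of all genes rose and 9.92% fell, and 9 rose in WT plants, where 5.63% of all genes rose. Their median log2 fold change was 0.06 in OE and 0.77 in WT plants, beside -0.67 and -0.46 for the chloroplast genes.

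The 14 chloroplast genes left untested had at most 12 counts in any library. petN, a small cytochrome b6f subunit, had 6 and 4 counts in droughted OE, 7 and 7 in watered OE, 6 and 8 in droughted WT and 5 and 5 in watered WT plants. psaC, the photosystem I subunit that binds the terminal iron-sulphur clusters, had 6 and 6, 6 and 4, 2 and 2, and 5 and 4 counts in the same order of groups. ndhE and ycf4, an assembly factor of photosystem I, had 1 to 12 counts. The small subunits psbL, psbT, psbN, psbH, petL and petG and the ribosomal gene rps16 had 0 to 12 counts. ycf1 at the other edge of the inverted repeat (ATCG01000) and the pair ATCG00870 and ATCG01270 had at most 1 count in any library. Differences between groups were not tested for these genes in the main fit.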

How the data were processed

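Each of the 8 libraries came with an expected count, an FPKM value and a length per gene, per the file headers, and a gene not listed in a library was taken as 0. The expected counts were deposited by the authors without normalization, and the FPKM values were deposited as the authors scaled them for gene length and depth. The submitters' processing notes name STAR, HISAT2 2.0.5, featureCounts, edgeR and the build TAIR10, with no role or order, and do not tell which made these values. The strand of counting and the selection of RNA are not given in the sources used here. Gene lengths in the deposited tables equalled the coding length of the same locus in TAIR10.1 (RefSeq) for 65 of the 88 chloroplast genes and no other gene, for 13 also that of another, and for 10 not at all.

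Expected counts were rounded to whole numbers, genes were filtered with filterByExpr (minimum count 10), scaled by TMM and fitted in edgeR 4.0.16 (R 4.3.3, robust quasi-likelihood, all 8 libraries, 1 mean per group), with two-sided p-values adjusted over 19259 genes and called under 0.05. The SE was taken from the F statistic, as the absolute log2 fold change over its square root. A level of 3 counts equals 0.242 to 0.313 CPM, and such limits cover counting error only. No label gives a batch. DESeq2 1.42.0, other scalings, no filter, the replicate number as a block and leaving out each library were tried as alternatives, and the scripts were tested on simulated data.

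Members follow from locus names alone, but this set and the gene lists were chosen with earlier results of these data known. The genes named were those called (up to 25 per comparison), 17 representatives of the functional groups, the 3 most abundant by count and by FPKM in each library, and up to 5 called genes per nuclear list. Others, such as psaB, petB, petD, ndhC, SIG5 in OE plants, SAG12, SGR1 and the untested genes, were named after their values were seen. A few items of the gene sets are not reported here by name.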

Additional observations from a re-analysis of the deposited data

How the results depend on the processing

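The 19 genes that fell in WT plants became 13 to 31 when 1 library was left out, and the 32 in OE plants 10 to 45. The same fits gave 0 to 1 that rose in WT plants, 0 to 3 lower in OE than in WT under drought and 0 to 4 lower in the difference of responses. Library totals alone left 19 in OE plants, and DESeq2 called 1 gene higher in OE than in WT with normal watering. The other alternatives stayed within 1.5 times of the counts in WT and OE plants. With the replicate block 20 fell in WT and 33 in OE plants, and deviations of same-numbered libraries correlated between -0.08 and 0.063, so the numbers do not pair the libraries.

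The log2 ratio of chloroplast shares for drought was between -0.43 and -0.26 in OE and between -0.507 and -0.242 in WT plants over the fits that left out 1 library, and between -0.129 and 0.135 (drought) and -0.111 and 0.059 (normal watering) for OE over WT. On summed FPKM it was -0.199 in OE and -0.072 in WT plants, and without atpB -0.119 in WT plants. The cause was not tested. No called change turned its direction under any alternative run. Among the genes chosen for naming, 93 values of single genes lost a call and 18 gained one. That tally left out other chloroplast genes, so it understates the calls gained over all tested ones. With 2 libraries a group and 4 residual degrees of freedom, moderate changes of genes with few counts were not detectable.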
